A study of Rattus norvegicus with 108 samples.

Results

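Mgp, Crip1, S100a6, Nupr1 and Ptgds were followed through 2 regions of the rat dentate gyrus, dorsal (dorDG) and ventral (venDG), and these 5 genes, out of 19127 in the count tables, were found in both tables. They had been brought together as genes of perivascular and meningeal tissue because of measured differences between treatments. Mgp and Crip1 were chosen as higher with treatment over all dorDG cells, and S100a6, Nupr1 and Ptgds as lower with treatment in mural-like cells of venDG. Those 2 contrasts are therefore given as values only, and the tests below use other samples, cells or comparisons.

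Male Long-Evans rats of the supplier Charles River, 2 months old at the start, drank water (Sham) or received fluoxetine, a selective serotonin reuptake inhibitor, at 18 mg per kg of body weight (FT) for 6 weeks. Both regions were punched from fresh brains, and each replicate was pooled from several animals. There were 4 dorDG FT replicates (570 cells), 5 dorDG Sham (719 cells), 5 venDG FT (1249 cells) and 5 venDG Sham (809 cells). No dorDG FT replicate 3 was analysed here. Nuclei are named in the labels, but the methods describe both cells and nuclei without saying which reaction held which. In 10x 3' droplets each cell's transcripts carry its barcode. Levels are UMIs (unique molecular identifiers, counted transcripts) of a gene per 10000 UMIs of all genes, summed over the cells of a replicate unless stated otherwise.

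Of the series as a whole, replicates held 42 to 384 cells and 220162 to 1523537 UMIs. Of 3338 barcodes, 9 occurred in more than 1 reaction. Replicates differed in the share of cells with under 2% of their UMIs in ribosomal protein genes, which was 22.8% ± 13.2 (SD, n = 4) in dorDG FT, 50.4% ± 14.4 (n = 5) in dorDG Sham, 29.3% ± 14.3 (n = 5) in venDG FT and 39.6% ± 17.1 (n = 5) in venDG Sham. This share moved with treatment in dorDG, and its values are given beside the results it touches. Cells annotated Mossy by the authors carried few markers of neurons, as described below.

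The blood vessels of the brain are lined by endothelial cells and wrapped by mural cells, that is pericytes along capillaries and contractile smooth muscle cells along arterioles. Fibroblasts lie around larger vessels and in the meninges. Mgp encodes matrix Gla protein, a secreted inhibitor of calcification of vessel walls. Crip1 encodes a small protein of a single LIM domain, and S100a6 a calcium-binding protein of the S100 family. Nupr1 encodes a small nuclear protein induced by cell stress. Ptgds encodes the lipocalin-type prostaglandin D2 synthase, which makes prostaglandin D2, is secreted into cerebrospinal fluid and is known from meningeal cells and oligodendrocytes.

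The promoter windows of Crip1, S100a6 and Ptgds are shown because these genes differ in the cells that carried them. They come from RefSeq on the rat assembly GRCr8, which is not the build named in the submitters' processing notes, and run from 250 bases before to 50 bases after a gene's start. Capitals mark the GC box GGGCGG, searched on both strands. Crip1 has 2 such windows, at chr6:138047551-138047850 (A) and chr6:138053618-138053917 (B), both on the plus strand. S100a6 lies at chr2:178398287-178398586 on the plus strand and Ptgds at chr3:28682929-28683228 on the minus strand.
Crip1 window A: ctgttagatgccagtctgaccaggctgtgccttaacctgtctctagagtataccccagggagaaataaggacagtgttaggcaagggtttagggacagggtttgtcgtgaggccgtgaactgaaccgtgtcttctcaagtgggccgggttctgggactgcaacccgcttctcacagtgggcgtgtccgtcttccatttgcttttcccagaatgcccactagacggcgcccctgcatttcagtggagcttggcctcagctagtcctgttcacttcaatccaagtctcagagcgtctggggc
Crip1 window B: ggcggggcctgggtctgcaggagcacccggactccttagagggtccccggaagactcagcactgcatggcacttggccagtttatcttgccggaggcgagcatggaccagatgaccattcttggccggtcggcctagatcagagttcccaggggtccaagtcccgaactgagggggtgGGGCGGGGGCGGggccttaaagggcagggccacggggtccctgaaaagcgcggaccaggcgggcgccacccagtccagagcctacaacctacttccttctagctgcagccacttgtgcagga
S100a6: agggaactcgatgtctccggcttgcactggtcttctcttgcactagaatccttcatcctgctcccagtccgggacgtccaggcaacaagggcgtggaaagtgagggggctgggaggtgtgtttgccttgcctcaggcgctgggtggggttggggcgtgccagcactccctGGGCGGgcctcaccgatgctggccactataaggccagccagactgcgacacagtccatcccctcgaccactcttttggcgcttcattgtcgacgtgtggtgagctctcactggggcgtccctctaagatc
Ptgds: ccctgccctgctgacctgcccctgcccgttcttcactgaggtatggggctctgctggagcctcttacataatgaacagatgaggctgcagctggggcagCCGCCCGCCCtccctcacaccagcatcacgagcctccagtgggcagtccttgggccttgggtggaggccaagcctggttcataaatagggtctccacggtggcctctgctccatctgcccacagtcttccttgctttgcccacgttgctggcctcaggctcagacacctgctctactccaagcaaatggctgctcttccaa
Window A of Crip1 held 0 matches, window B held 2, S100a6 held 1 and Ptgds held 2 overlapping matches on the other strand. The Nupr1 window, at chr1:190645852-190646151 on the minus strand, held 1 match, and no entry was matched for Mgp. Of all 33469 promoter windows, 33.1% held a GC box. The TATA box TATAAA, present in 14.2% of all windows, and the CArG box, the binding motif of serum response factor in smooth muscle genes, present in 1.64%, had 0 matches in these 5 windows. These letters describe the windows and were not related to the expression values.

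Ptgds was by far the most abundant of the 5 genes and Nupr1 the least. Over the replicates, Ptgds ranged from 4.0 to 19.6 per 10000, Crip1 from 0.0204 to 3.22, Mgp from 0.122 to 1.3, S100a6 from 0 to 0.551 and Nupr1 from 0 to 0.416. Each of these is a level per UMI and not per transcript length, so the order is one of 3' tags. Within a region few cells made up most of each total. In dorDG 50% of the UMIs lay in 20 of 1289 cells for Mgp, in 7 for Crip1, in 4 for S100a6, in 6 for Nupr1 and in 56 for Ptgds. In venDG the numbers were 29, 8, 5, 5 and 88 of 2058 cells.

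**Figure D1:**
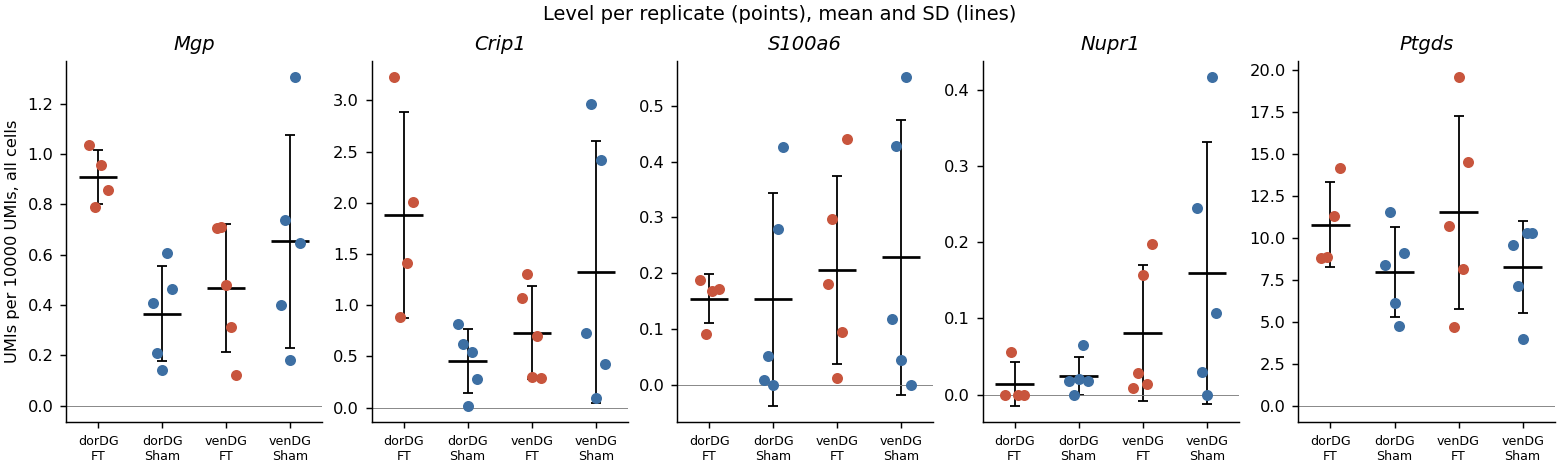
Level of each gene per replicate, in UMIs per 10000 UMIs over all cells (each panel has its own linear axis), with the group mean and SD as lines. For Mgp and Crip1 the dorDG FT points, up to 1.03 and 3.22, lie above every dorDG Sham point, whereas the groups overlap in all other panels and regions.

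The perivascular and meningeal label held for only some of the genes. Mgp, Crip1, S100a6 and, in part, Nupr1 were carried by cells with mural markers, and Ptgds by oligodendrocytes. In dorDG the authors' 12 cell types were used. In venDG, cells were clustered and clusters named from marker genes, with the ending "-like", and since the 5 genes were among those clustered, their levels by type are descriptions. In dorDG, cells annotated Mossy held 62.1% of the Mgp UMIs, 73.1% of Crip1, 40.7% of S100a6 and 46.2% of Nupr1 (6 of 13 UMIs), but 1.19% of Ptgds, while making up 5.59% of the cells. In venDG, mural-like clusters, 4.96% of the cells, held 65.0%, 66.9%, 49.5%, 44.6% and 4.08% in the same order.

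**Figure D2:**
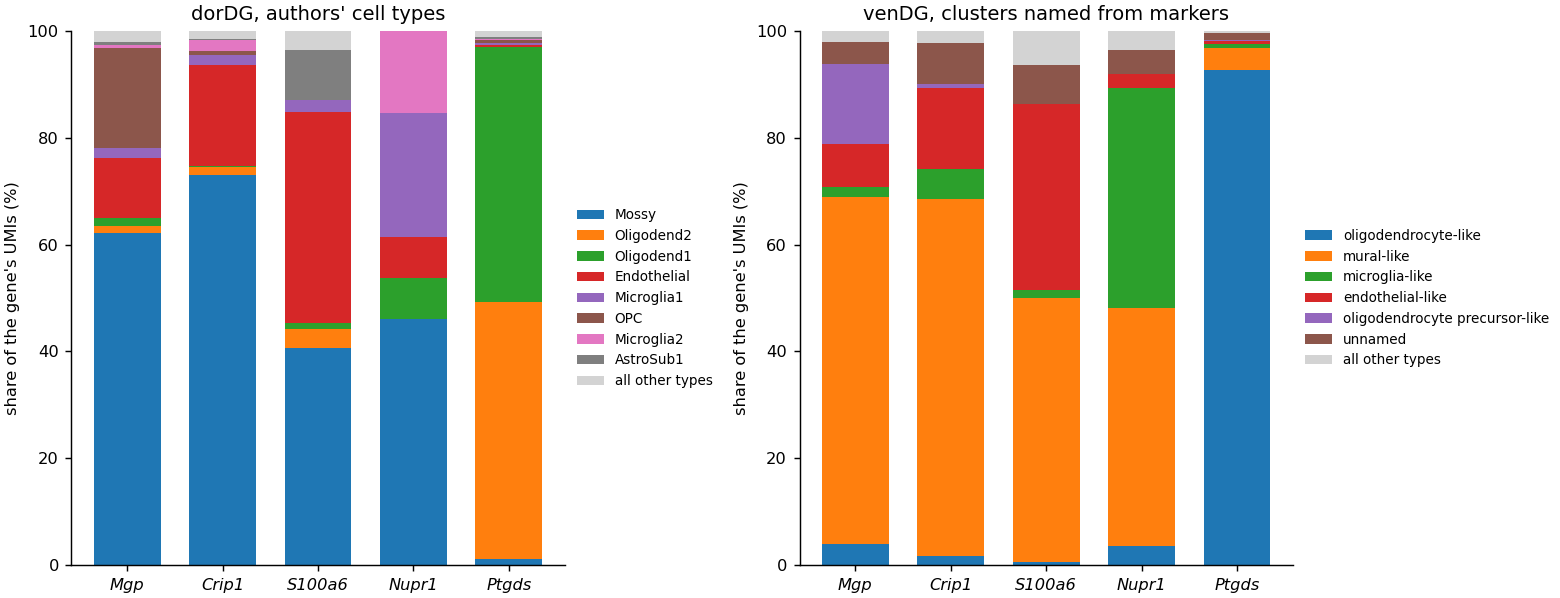
Share of each gene's UMIs held by each cell type, in percent, for dorDG (left) and venDG (right), with types that held under 4% of every gene joined as all other types. Mossy-annotated and mural-like cells take the largest part of the Mgp and Crip1 bars, and oligodendrocytes take 95.8% of Ptgds in dorDG and 92.8% in venDG. The Nupr1 bar of dorDG rests on 13 UMIs.

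The annotation Mossy, the name of a hilar excitatory neuron, went against the markers of these 72 cells. They held a median of 6 of 12 mural markers, and 79.2% of them held at least 4. The pericyte genes Rgs5, Pdgfrb, Higd1b and Vtn, the most frequent of the 12, were detected in 73.6%, 73.6%, 75.0% and 72.2% of them. Kcnj8, Abcc9 and Cspg4 were found in 48.6% to 54.2%, and Tagln, Myh11, Notch3, Des and Anpep in 16.7% to 33.3%. Of 5 excitatory markers the median was 1. Of 6 granule cell markers, Stxbp6 and Pdzd2 were found in 37.5% and 36.1%, Prox1 in 11.1%, and the others in 0% to 9.72%. The 102 mural-like venDG cells likewise held a median of 6 mural markers, with at least 4 in 91.2%. Mossy-annotated cells also held markers of other types, with a median of 3 of 9 endothelial markers and Mbp, a myelin gene, in 100%. The endothelial genes Itm2a, Flt1 and Slc2a1 were in 84.7%, 72.2% and 63.9%, about as often as the pericyte genes, and Cldn5 and Cdh5 in 2.78% and 5.56%. Whether free RNA or joined cells gave the markers of other types was not tested.

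Of 16 fibroblast markers these cells held a median of 2 in both regions. Dcn, a collagen-binding proteoglycan, was found in 1 of 72 Mossy-annotated cells and in 4 of 102 mural-like cells, and Lum, a related proteoglycan, in 0 and 2. Col1a1, Col1a2 and Col3a1 were found in 5.56% to 9.72% of Mossy-annotated and 5.88% to 10.8% of mural-like cells. Other listed markers were more common, with Apod in 54.2% and 51.0%, Col6a1 in 48.6% and 39.2%, Slc6a13 in 22.2% and 31.4%, and Igf2 in 12.5% and 23.5%. Apod, which counts among the 16 markers, was not particular to these cells. It was found in 69.0% of OPC (oligodendrocyte precursors) and 37.2% of endothelial cells of dorDG. Over cells it followed Ptgds, with r = 0.79 in dorDG and 0.81 in venDG. At least 4 of the fibroblast markers, none of them one of the 5 genes, were detected in 15 dorDG and 31 venDG cells, and a further 34 and 52 cells held 1 marker fewer. Cells that passed were deep, with a median of 12504 UMIs in dorDG and 9601 in venDG against 3933 and 3340 in the other cells, and 8 of the 15 and 18 of the 31 were Mossy-annotated or mural-like. Their share was 0.985% ± 0.692 (SD, n = 4) in dorDG FT, 1.2% ± 0.915 (n = 5) in dorDG Sham, 1.41% ± 0.747 (n = 5) in venDG FT and 1.54% ± 1.17 (n = 5) in venDG Sham. They held 23.3% of the S100a6 UMIs of dorDG and, in venDG, 27.9% of S100a6 and 33.0% of Nupr1.

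At a stricter threshold of 8 markers, chosen after the values were seen, 1 dorDG cell and 4 venDG cells remained. One venDG Sham replicate 1 cell with 10 fibroblast markers and 1 mural marker held 359 Ptgds UMIs, 22 of Nupr1, 17 of Lum and 11 of Dcn. One venDG FT replicate 5 cell with 12 fibroblast markers held 25 S100a6 UMIs and 11 of Nupr1, with 28 of Dcn and 20 of Lum, but 2 of Ptgds. The dorDG cell, from Sham replicate 4, held 48 Ptgds UMIs among 3020 in all. Both of these venDG cells lay in a mural-like cluster, the class in which S100a6, Nupr1 and Ptgds were chosen. The other 2 venDG cells lay in unnamed clusters. One, from FT replicate 1, held 9 fibroblast markers, 3 Ptgds UMIs and 0 of the other 4 genes, and the other, from Sham replicate 1, held 9 fibroblast, 8 mural and 7 endothelial markers, with 26 Crip1 and 19 Ptgds UMIs.

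Mgp, the inhibitor of calcification, was detected in 63.9% of Mossy-annotated cells (exact 95% interval 51.7% to 74.9%) at 5.01 per 10000, and in 65.7% of mural-like cells (55.6% to 74.8%) at 6.91. After each cell was thinned to 1000 UMIs the shares were 37.2% and 46.4%. Cells annotated Granule in dorDG held 0 Mgp UMIs (floor 0.073 per 10000, the level that 3 counts would give). They are a shallow reference for free RNA, with a median of 1402 UMIs and of 0 of 6 granule markers, and 79.0% of them were ribosome-poor. The other dorDG types, apart from OPC and endothelial cells, held Mgp at 0.0394 to 0.402, the highest from 2 UMIs in 43 cells. These intervals and floors cover counting error only. Mgp followed the mural markers cell by cell, from 0.199 per 10000 in dorDG cells with 0 or 1 mural marker to 7.60 in the 20 cells with 8 or more, and from 0.195 to 5.92 in venDG.

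Oligodendrocyte precursors were the second carrier of Mgp. In dorDG 36.8% of the 87 precursor cells (OPC) held it, at 1.41 per 10000, and in venDG 21.7% of the 180 precursor-like cells at 0.89. OPC levels in dorDG replicates 1, 2, 4 and 5 of FT were 1.23, 1.16, 1.01 and 1.26. In the 3 Sham replicates with at least 5 such cells (1, 2 and 5) they were 1.12, 0.772 and 2.99, and the groups overlap. Precursor cells with under 2 mural markers held Mgp at 1.5 in dorDG (35.0% of 60 cells). In venDG such cells held it at 0.992 (22.4% of 147 cells). Both levels were no lower than those of all precursor cells. Cspg4, counted here as a mural marker, was itself found in 55.2% of OPC at 1.97 per 10000. In Mossy-annotated cells it was found in 51.4% at 1.44. The marker count therefore does not single out precursor cells mixed with mural cells, and the part of such mixing was not tested. Crip1 was rare in all precursor cells (0.0995 per 10000 in dorDG and 0.0702 in venDG), and S100a6 and Nupr1 had 0 UMIs there in both regions.

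Crip1, the LIM protein, was concentrated further. It was detected in 50% of Mossy-annotated cells at 10.8 per 10000 and in 41.2% of mural-like cells at 12.9, with thinned shares of 28.1% and 29.0% and 0 UMIs in Granule-annotated cells. Endothelial cells carried it too, at 1.93 per 10000 in dorDG (25% of 180 cells, thinned 11.7%) and 1.57 in venDG (20.3% of 241 cells, thinned 8.97%). Cells that held the contractile genes Tagln, Myh11 and Des carried most of it. Of the Mossy-annotated cells, the 14 with 2 or 3 of these genes held Crip1 at 32.9 and Mgp at 10.2, against 2.96 and 3.19 in the other 58, a split chosen after the values were seen.

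The same division appeared among the mural-like clusters of venDG, whose defining genes it partly restates. A cluster of 12 cells led by Tagln, Des and Myh11 held Crip1 in 12 of 12 cells at 76.7 per 10000, with Mgp at 17.3 and S100a6, itself among its leading genes, at 9.23. A cluster of 62 cells led by Kcnj8, Cd248 and Higd1b, genes of pericytes, held Mgp at 12 but Crip1 at 4.03. The remaining one, of 28 deep cells (median 9632 UMIs) with a median of 6 endothelial markers, held 2.12 and 1.41. Over both regions, Crip1 was thus highest where contractile genes were found, and Mgp was high in both the contractile and the pericyte-marked cluster.

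**Figure D3:**
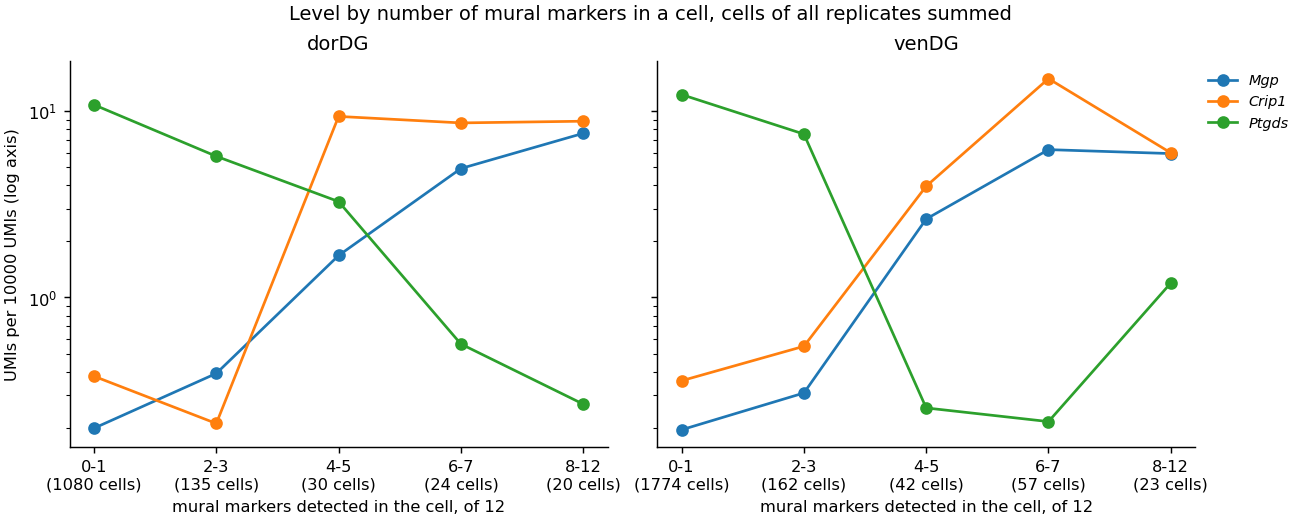
Level of Mgp, Crip1 and Ptgds (log axis, UMIs per 10000 UMIs) in cells grouped by how many of 12 mural markers they held, cells of all replicates summed, with the number of cells in brackets. In dorDG Mgp goes from 0.199 to 7.60 and Ptgds from 10.8 to 0.268 between the lowest and the highest bin, and the highest bins hold 20 and 23 cells.

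S100a6, the calcium-binding protein, was carried by vascular cells of both kinds. It reached 0.743 per 10000 in Mossy-annotated cells and 0.502 in endothelial cells of dorDG, which together held 80.2% of its UMIs, and 1.97 in mural-like and 0.742 in endothelial-like cells of venDG, which held 84.2%. It was found in only 28 dorDG and 47 venDG cells. In dorDG endothelial cells all 34 UMIs came from Sham replicates, which had a mean of 0.771 ± 1.04 (SD, n = 5), and the 4 FT replicates had 0. Of those UMIs 16 came from Sham replicate 4 and 17 from Sham replicate 5, 15 of the latter from 1 cell. Only 7 of the 180 endothelial cells held any. That difference was not tested, since S100a6 was under the low-count limit there.

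Nupr1, the stress-induced nuclear protein, was close to the detection limit in dorDG, with 13 UMIs in 12 cells. In venDG it had 112 UMIs in 44 cells and 2 main carriers, mural-like cells at 1.05 per 10000 (9.80% of cells, thinned 4.83%) and microglia-like cells at 0.287 (5.59% of 358 cells, thinned 1.71%). Its highest single cell, with 22 UMIs, was the fibroblast-marked cell of venDG Sham replicate 1.

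Ptgds behaved unlike the other 4. In dorDG the 2 oligodendrocyte types, Oligodend1 and Oligodend2, held it at 41.5 and 41.3 per 10000, in 61.4% of 171 and 88.4% of 95 cells. In venDG oligodendrocyte-like cells it reached 46.2, in 80.7% of 420 cells. Every other dorDG type was at 1.42 or below, and Granule-annotated cells held it at 0.584 with a UMI in 15.1% of cells (thinned 6.17%, median depth 1402 UMIs). The thinned shares in endothelial, OPC and both microglial types lay at 2.78% to 5.25%, below that of Granule-annotated cells. Of Granule-annotated cells 79.0% were ribosome-poor, against 7.22% of endothelial cells, so they set no background level for these types. Whether this Ptgds was free RNA was not tested. Mossy-annotated cells had a thinned share of 4.35%. Of their 67 Ptgds UMIs, 48 lay in the fibroblast-marked cell of Sham replicate 4.

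Genes with the most similar pattern over cells (Pearson's r of log levels, within the top 10 of 15636 genes in both regions) followed these carriers. For Mgp they were Cox4i2, with r = 0.57 over 1289 dorDG and 0.56 over 2058 venDG cells, then Myl9, Higd1b, Vtn and Rgs5 (0.44 to 0.53), the last 3 of them pericyte genes. For Crip1 they were Tagln, Myl9, Mustn1 and Des, at 0.40 to 0.50, which encode proteins of the contractile apparatus or of muscle. For Ptgds they were Mal, Cldn11, Apod and Qdpr, at 0.78 to 0.87, all expressed by myelinating cells. For S100a6, S100a11 and Crip1 were the named genes, at 0.32 to 0.40, beside a pair of unnamed loci, and for Nupr1 no gene met the rule. These correlations share libraries and depth, and are weaker in sparse counts.

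Mgp and Crip1 were seen in the same cell in 39 dorDG and 46 venDG cells, 30.5% and 25.7% of the Mgp cells and 32.2% and 28.6% of the Crip1 cells. Of these, 28 and 31 were Mossy-annotated or mural-like. S100a6 shared 16 of its 28 dorDG cells (57.1%) and 19 of its 47 venDG cells (40.4%) with Crip1. The cells that held both genes of a pair were deeper than the rest, with a median of 6482 UMIs for Mgp with Crip1 in dorDG against 3949 over all cells.

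Over all dorDG cells, Mgp was 1.03, 0.791, 0.958 and 0.857 per 10000 in FT replicates 1, 2, 4 and 5, and 0.407, 0.207, 0.143, 0.608 and 0.463 in Sham replicates 1 to 5. Crip1 was 3.22, 0.881, 1.41 and 2.00 in FT and 0.814, 0.622, 0.0204, 0.542 and 0.278 in Sham. Every FT replicate lay above every Sham replicate for both genes, the pattern by which they were chosen. On the log2 scale the fitted differences were 1.38 (SE 0.31) for Mgp and 2.05 (SE 0.54) for Crip1, and over all genes 28.6% of the 4274 tested were called (an adjusted p of at most 0.2 and a change of at least 0.32). Nothing is read from the call of these 2 genes. Of all genes tested, 4.12% had every FT replicate above every Sham replicate. The called share itself rests on single replicates and on the ribosome-poor cells, since without any 1 of FT replicates 4 and 5 or Sham replicates 3 and 5, or among cells with at least 2% ribosomal UMIs, edgeR called 0 genes. At an unadjusted p under 0.05 there were still 528 to 926 genes without 1 of those replicates and 92 in the ribosome-rich cells, and DESeq2 on all replicates called 1849.

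Most dorDG UMIs of both genes lay in the Mossy-annotated cells. These made up 8.64% ± 0.676 (SD, n = 4) of the cells in FT replicates, from 7.69% to 9.16%, and 2.86% ± 2.41 (n = 5) in Sham replicates, from 0% to 5.93%. Counted by markers instead, cells with at least 4 mural markers were 8.42% ± 1.93 of all cells in FT and 3.68% ± 2.62 in Sham replicates. Without Mossy-annotated cells, Mgp stood at 0.256 ± 0.119 in FT and 0.236 ± 0.125 in Sham, and Crip1 at 0.373 ± 0.225 and 0.260 ± 0.209. The groups then overlapped. The FT minus Sham difference went from 0.544 to 0.0208 for Mgp and from 1.42 to 0.114 for Crip1. The ratio of FT to Sham went from 2.49 to 1.09 for Mgp and from 4.13 to 1.44 for Crip1. Since these cells held most of the UMIs, leaving them out lowers both levels in any case. In which cells the difference arose was not tested.

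**Figure D4:**
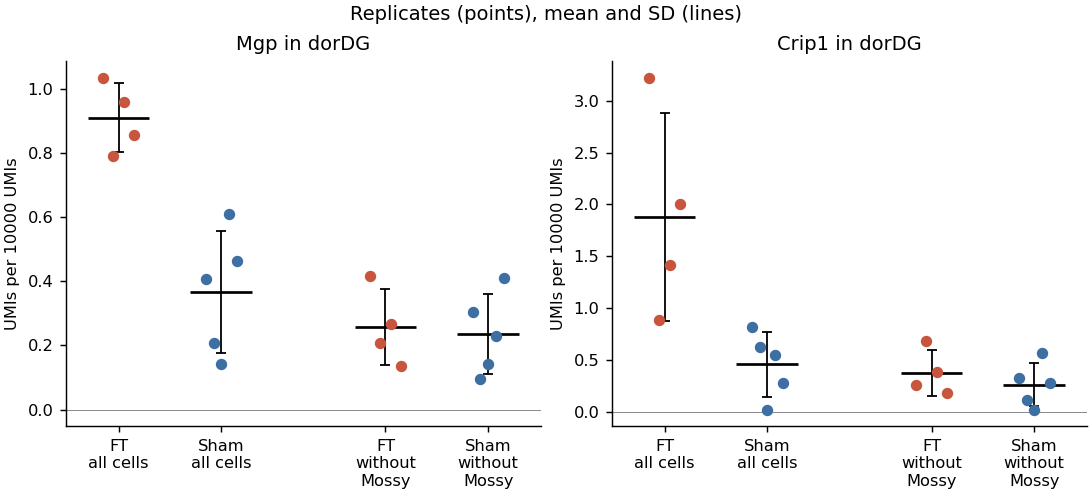
Mgp (left) and Crip1 (right) in dorDG, in UMIs per 10000 UMIs, per replicate with the mean and SD, over all cells and without the Mossy-annotated cells. The FT mean of Mgp goes from 0.910 to 0.256 and that of Crip1 from 1.88 to 0.373 when these cells are left out, and the FT and Sham points then overlap.

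Within the Mossy-annotated cells, Mgp was 6.74, 4.79, 6.34 and 6.03 per 10000 in FT replicates 1, 2, 4 and 5, and 2.50, 1.33 and 5.94 in Sham replicates 1, 2 and 4, the only ones with at least 5 such cells. Crip1 was 30.7, 2.22, 9.44 and 15.1 in FT and 10.8, 5.69 and 0.247 in Sham. Both genes overlapped between groups within these cells. Of the 14 cells with 2 or 3 contractile genes, from 5 replicates, 13 came from FT and 1 from Sham. Of all 72 Mossy-annotated cells, 49 came from FT. Among the other 58, Mgp was 3.24 in FT and 3.11 in Sham, and Crip1 2.90 and 3.04. These values sum cells over replicates, on a split chosen after the values were seen, and were not tested. Among dorDG cells with at least 2% ribosomal UMIs, Mgp stood at 1.08 ± 0.135 in FT and 0.553 ± 0.214 in Sham without overlap, and Crip1 at 2.22 ± 1.24 and 0.695 ± 0.509 with overlap. The log2 differences there were 0.90 (SE 0.26) and 1.5 (SE 0.49), smaller than over all cells. How many cells of each kind entered a suspension and how many each brain holds cannot be told apart.

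Over all venDG cells, which did not enter the choice of Mgp and Crip1, no difference between FT and Sham passed the test. Mgp was 0.705, 0.71, 0.479, 0.313 and 0.122 per 10000 in FT replicates 1 to 5 and 0.400, 0.737, 0.182, 1.3 and 0.645 in Sham. The log2 difference was -0.52 (SE 0.43, edgeR adjusted p = 0.807). Crip1 was 1.07, 1.3, 0.302, 0.694 and 0.289 in FT and 0.727, 2.96, 0.0908, 2.42 and 0.430 in Sham, with a difference of -0.93 (SE 0.59, adjusted p = 0.767). Both lay lower in FT on average, the opposite side from dorDG, and the replicates of the groups overlap widely. Here edgeR called 0% of 4079 genes, 237 of which had an unadjusted p under 0.05, and 18 passed with DESeq2.

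Cells with at least 4 mural markers made up 5.23% ± 2.35 (n = 5) of venDG FT and 6.64% ± 2.72 (n = 5) of venDG Sham cells. In the endothelial-like cells of venDG, where these genes also occur, the log2 differences were -0.64 (SE 0.88) for Mgp, 0.63 (SE 0.51) for Crip1 and 1.13 (SE 0.83) for S100a6, each with an edgeR adjusted p of 1.0. Of the 66 S100a6 UMIs there, 25 lay in 1 cell of FT replicate 2. There edgeR called 0% of 3508 genes and DESeq2 called 0, while 138 had an unadjusted p under 0.05 in edgeR. Mgp in precursor-like cells differed by -0.17 (SE 0.47, adjusted p = 1.0) in a fit where edgeR and DESeq2 both called 0 of 4354 genes (0%), 176 of which had an unadjusted p under 0.05. The intervals are wide, so these values do not show that the groups were alike.

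Between regions, Mgp and Crip1 stood on opposite sides in the 2 treatments. In Sham replicates venDG exceeded dorDG by 0.98 (SE 0.42) for Mgp and 1.63 (SE 0.67) for Crip1 on the log2 scale. In FT replicates dorDG was the higher, with differences of -0.90 (SE 0.36) and -1.33 (SE 0.47). The interaction, the venDG response minus the dorDG response, was -1.85 (SE 0.59) and -2.92 (SE 0.90). All of these share the dorDG replicates in which the genes were chosen, so they are given without a test.

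S100a6 and Nupr1 over all cells were too low for the main test. S100a6 in dorDG was 0.188, 0.0904, 0.168 and 0.171 in FT and 0.00904, 0.0518, 0, 0.279 and 0.426 in Sham, with means of 0.154 and 0.153. In a fit with no limit on low counts the log2 difference was 0.23 (SE 0.62, edgeR adjusted p = 0.908), and for Nupr1 it was -0.34 (SE 0.99, adjusted p = 0.918), in a table of 18918 genes of which 1.09% were called. In venDG, S100a6 averaged 0.206 ± 0.169 in FT and 0.228 ± 0.246 in Sham, and Nupr1 0.0815 ± 0.0890 and 0.160 ± 0.172. The FT and Sham replicates overlap in each.

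In the mural-like cells of venDG, the contrast by which S100a6, Nupr1 and Ptgds were chosen, a single cell set the size of the Ptgds difference. Ptgds had 6 UMIs in 53 FT cells and 367 in 49 Sham cells, of which the fibroblast-marked cell held 359. Without it the Sham level went from 20.5 to 0.47 per 10000, beside 0.201 in FT. Nupr1 had 13 UMIs in FT and 37 in Sham (0.435 and 2.07 per 10000), and 22 of the latter lay in that same cell. Without the top cell of each group its levels were 0.068 in FT and 0.874 in Sham. S100a6 had 30 and 64, with 25 of the FT UMIs in 1 cell and 9 Sham cells against 3 FT cells holding any. Mgp, for comparison, had 184 UMIs in FT and 146 in Sham in the same cells, and Crip1 223 and 391. Per 10000 UMIs, Mgp stood at 6.16 in FT and 8.16 in Sham, and Crip1 at 7.47 and 21.9.

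Ptgds over all cells was tested freely in dorDG and did not pass. It was 8.78, 8.88, 11.3 and 14.2 per 10000 in FT replicates 1, 2, 4 and 5 and 8.39, 11.6, 6.10, 4.72 and 9.12 in Sham, a log2 difference of 0.49 (SE 0.32, edgeR adjusted p = 0.297). Without Sham replicate 2 it was 0.72 and passed (adjusted p = 0.0993), and among cells with at least 2% ribosomal UMIs it was -0.18. In venDG it was 10.7, 4.71, 19.6, 8.13 and 14.5 in FT and 9.58, 7.11, 4.0, 10.3 and 10.3 in Sham, a difference of 0.47 (SE 0.33, adjusted p = 0.773). Without mural-like cells, which entered its choice, the venDG difference was 0.60 (adjusted p = 0.733).

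Between regions no difference in Ptgds passed the test. Over all cells, which include the mural-like cells of its choice, the venDG minus dorDG difference is given as a value, 0.09 (SE 0.33) in Sham and 0.08 (SE 0.33) in FT replicates, with an interaction of 0.02 (SE 0.48). Without Mossy-annotated and mural-like cells the differences were 0.013 (SE 0.36, edgeR adjusted p = 0.995) in Sham and -0.015 (SE 0.34, adjusted p = 0.999) in FT, and the interaction 0.0022 (SE 0.51, adjusted p = 1.0). Over all cells, 0% of genes were called between regions in Sham (361 had an unadjusted p under 0.05, and 155 passed with DESeq2), 0.275% in FT, and 0% for the interaction (404 and 8). Same-numbered replicates of the regions deviated together in Sham and, with r over 0.1 in 3 of 4 pairs, in FT. The fits above leave this pairing out. No blocked fit was run without Mossy-annotated and mural-like cells, so the adjusted p-values given for that setting ignore the pairing. Over all cells, a fit blocked on replicate number called 105 genes between regions in Sham and gave Ptgds 0.12. In FT the blocked fit called more genes than the unblocked one and the Ptgds difference turned negative, with the values given at the end. Without dorDG Sham replicate 2, 335 genes were called for the interaction and 142 between regions in Sham.

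Within oligodendrocytes, Ptgds was higher in FT on average in all 3 classes, and none passed the test. In Oligodend1 it was 56.8, 35.0, 56.6 and 51.9 per 10000 in FT replicates 1, 2, 4 and 5 and 37.9, 26.6, 42.8, 19.1 and 43.1 in Sham replicates 1 to 5. Only FT replicate 2 lay within the Sham range. The log2 difference was 0.62 (SE 0.26, edgeR adjusted p = 0.25), and 5.98% of 3693 genes were called. Ptgds passed with DESeq2 (adjusted p = 0.109), when blocked on replicate number (0.72, adjusted p = 0.172) and without FT replicate 2 (0.77, adjusted p = 0.116).

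Oligodend2 gave a smaller and the oligodendrocyte-like cells of venDG a like value. Oligodend2 had 42.7, 53.1, 37.5 and 45.3 in FT replicates 1, 2, 4 and 5 and 42.6, 35.3 and 28 in Sham replicates 1 to 3, the only ones with at least 5 such cells, a difference of 0.33 (SE 0.24, edgeR adjusted p = 0.999) where 0.029% of genes were called. Oligodendrocyte-like cells stood at 47.8, 45.7, 50, 58.7 and 56.9 in FT and 30, 38.8, 19.2, 49.1 and 35.1 in Sham replicates 1 to 5, so that Sham replicate 4 alone lay within the FT range. The difference was 0.59 (SE 0.22, adjusted p = 0.367), with 0.142% of genes called. It passed when blocked on replicate number (0.65, adjusted p = 0.115) and without Sham replicate 4 (0.77, adjusted p = 0.0786).

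The ribosomal share of a cell moved with Ptgds inside each oligodendrocyte class. In Oligodend1, the 86 cells with under 2% ribosomal UMIs held Ptgds at 7.35 per 10000, and the other 85 at 50.2, higher in 6 of 6 replicates with at least 3 cells of both kinds. In Oligodend2 the values were 1.22 and 43.9 (2 of 2 replicates), and in oligodendrocyte-like cells 12.4 and 50.2 (9 of 10). The ribosome-poor share of Oligodend1 cells was 20.6% ± 21.1 in FT and 64.0% ± 13.7 in Sham, and of oligodendrocyte-like cells 22.3% ± 12.9 and 38.5% ± 19.4. Among the cells with 2% or more, Ptgds stood at 51.7 ± 7.31 in FT and 48.0 ± 17.0 in Sham for Oligodend1, at 47.2 ± 4.42 and 40.7 ± 3.8 for Oligodend2, and at 54.0 ± 4.41 and 40.6 ± 10.7 for oligodendrocyte-like cells. The difference was thus smaller than the SDs in Oligodend1 and larger than them in oligodendrocyte-like cells. In Oligodend2 it was larger than them over Sham replicates 1 to 3, which held at least 5 cells. Sham replicate 4, with 4 cells, was left out there and stood at 58.7, above every FT replicate (up to 53.1). The part of cell quality in these differences was not tested.

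**Figure D5:**
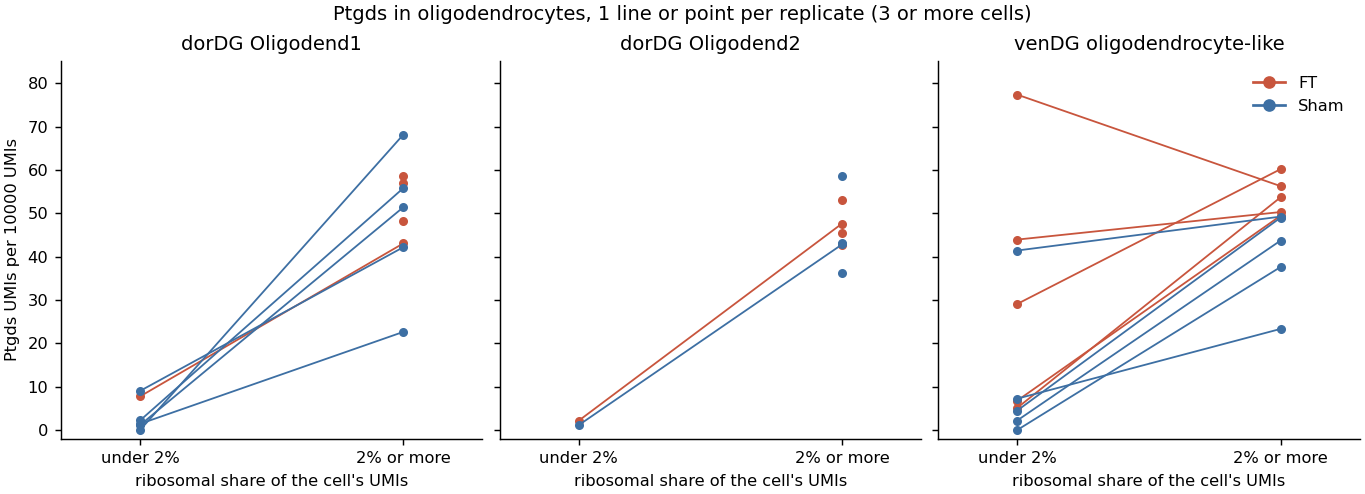
Ptgds in the 3 oligodendrocyte classes, in UMIs per 10000 UMIs (linear axis), for cells with under 2% and with 2% or more ribosomal UMIs, with 1 line or point per replicate that had at least 3 such cells. All lines rise to the right but 1, that of a venDG FT replicate with 3 ribosome-poor cells at 77.4, which falls.

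In 8 replicates the labels name 2 reactions, and the means of all 5 genes were lower in the second. The first reaction, by its number in the labels, held Ptgds at 12.3 ± 3.49 per 10000 (SD, n = 8) and the second at 0.723 ± 0.497, higher in the first in 8 of 8 replicates. For Crip1 the means were 1.89 ± 1.31 and 0.177 ± 0.240, for Mgp 0.764 ± 0.320 and 0.218 ± 0.108, and for S100a6 0.211 ± 0.185 and 0.0533 ± 0.0423, each higher in the first in 7 of 8. Nupr1 stood at 0.0660 ± 0.124 and 0.0205 ± 0.0260 (5 of 8). The 2 genes above the low-count limit passed the test within replicates, Ptgds at -4.69 (SE 0.33, edgeR adjusted p = 1.7e-08) and Crip1 at -3.70 (SE 0.48, adjusted p = 6.2e-06). This is read against a background of 84.1% of 4378 genes called.

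By cells the reactions held a like share of oligodendrocytes, 19.1% of 1042 and 18.0% of 784. By UMIs their share was 22.7% in the first and 9.74% in the second. Ptgds within oligodendrocytes was 47.3 in the first and 2.63 in the second. Mossy-annotated and mural-like cells made up 7.39% and 1.91%. In those cells Mgp was 6.84 and 0.827, and Crip1 17.2 in the first reaction and 0 in the 15 cells of the second. Both the number of mural-marked cells and the level within them were lower in the second reaction. The second reactions were also the ribosome-poor ones, with 78.3% to 95.9% of cells under 2% ribosomal UMIs against 4.08% to 15.5% in the first. They gave 103 of 570 cells in dorDG FT and 209 of 719 in dorDG Sham, and the part of each in these differences was not tested.

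Related genes from lists of the same families and pathways behaved in dorDG as follows, with FT against Sham over all cells read against the 12.4% of all genes called higher and 16.1% called lower in FT. Of 13 S100 genes present, 4 were tested, of which S100a13 rose, at 0.77 (SE 0.22, edgeR adjusted p = 0.155), and S100pbp, which is named for binding an S100 protein, fell, at -0.90 (SE 0.24, adjusted p = 0.155). The median of the 4 was 0.37, against -0.04 over all genes. Of LIM-only and CRP genes other than Crip1, 3 were tested and 0 were called, with a median of 0.29. Of the prostaglandin D2 pathway only Ptgds and Pla2g4a, a phospholipase that frees arachidonic acid, were tested, and Pla2g4a gave -0.34 (SE 0.25, edgeR adjusted p = 0.335). Both carriers tested among lipocalins and retinoid carriers, Apod at 0.45 (adjusted p = 0.426) and Ttr at 2.45 (SE 1.73, adjusted p = 0.330), missed the threshold.

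Of the genes of matrix mineral control 1 besides Mgp was tested, and it rose, Vkorc1, which recycles the vitamin K that activates Mgp, at 0.65 (SE 0.29, edgeR adjusted p = 0.186). In the stress response list, around Nupr1, 3 of 5 tested genes rose, the transcription factor Atf3 at 0.94 (SE 0.29, adjusted p = 0.155), the chaperone Hspa5 at 0.57 (SE 0.26, adjusted p = 0.187) and Ddit4 at 0.49 (SE 0.21, adjusted p = 0.183), and Ddit3 gave 0.50 (adjusted p = 0.210). S100pbp and Ddit4 were named after their values were seen. With a block on replicate number none of these calls held, at changes near those above (Atf3 0.97, S100a13 0.72 and S100pbp -0.74, each with an adjusted p of 0.216). Among cells with at least 2% ribosomal UMIs none held either, and the changes were smaller (Atf3 0.24, Hspa5 0.06, Ddit4 -0.13, Vkorc1 0.14). In both settings edgeR called 0 of all genes (891 and 92 at an unadjusted p under 0.05). In venDG edgeR called 0 genes of any of the 6 lists. Between the reactions, where 39.9% of all genes were called lower in the second, 5 of 6 stress genes, 3 of 4 LIM genes other than Crip1 and 3 of 4 S100 genes were lower.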

How the data were processed

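Single-cell RNA-seq libraries of the 10x 3' v2 kind, 108 in all, were analysed from 1 table of UMI counts per region, deposited by the authors after Cellranger count 2.1.0 and Seurat 3 (genome build rn5 in the submitters' processing notes). Values are raw counts, as deposited, of 19127 genes in 3347 cells. The other columns used, the cell types, replicates and treatments of each cell, are also as deposited by the authors. In venDG, 170 columns that matched no sample were not used. Cells held at least 499 genes and 596 to 19881 UMIs, so levels near 1 UMI are imprecise. No doublet caller was run.

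Cells of venDG were clustered (scanpy 1.11.5, leidenalg 0.10.2, 30 clusters), and a name needed 3 markers. The 6 clusters that stayed unnamed held 315 cells. Counts were summed per replicate, or per replicate and type (at least 5 cells in at least 3 replicates of each group), and tested with edgeR 4.0.16 (quasi-likelihood, TMM, R 4.3.3) over all genes averaging 0.5 or more UMIs per 10000, with Benjamini-Hochberg adjustment. A call needed an adjusted p of at most 0.2 and a log2 change of at least 0.32. Alternatives were DESeq2 1.42.0, no filter, a replicate block, cells with at least 2% ribosomal UMIs, other cell sets and leaving out each replicate. Shares were also computed after thinning to 1000 UMIs, with exact 95% intervals. The 5 genes and all lists were chosen with earlier results of these data known. From each list the 3 genes of highest level were named, and of similar genes at most 5 in the top 10 of both regions (1 of those is not reported here). On simulated counts for the comparison over all dorDG cells (4274 genes) 69% of 2-fold and 100% of 4-fold changes were recovered. For venDG (4079 genes) the shares were 86% and 99%. Of 209 calls in dorDG 40 were false, and of 233 in venDG 48. Each gene was drawn on its own, without variation shared between genes, so recovery in the real counts may be lower. Replicates are pools of animals, and the 36 pairs of replicates within a group differed beyond sampling noise (chi-square per degree of freedom 2.97 to 17.1). Same-numbered Sham replicates of dorDG and venDG correlated in their deviations (r = 0.196 to 0.552 in 5 of 5 pairs). Those of FT had r = 0.094 to 0.344, over 0.1 in 3 of 4 pairs. The numbers, given in the labels, were taken to pair the regions.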

Additional observations from a re-analysis of the deposited data

Results flagged for a closer look

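Nupr1 in dorDG FT replicate 2 stood apart from the other replicates of its group, at 0.0565 UMIs per 10000 while the other 3 were at 0. With 3 replicates at 0, the rule for outliers flags any value above 0 in the remaining one, so the flag carries little weight. The value rests on a gene with 13 UMIs over all dorDG cells.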

How the results depend on the processing

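Of 330 settings for the log2 changes of the 5 genes, 21 turned sign, and in 6 Ptgds passed where the reported value had not. The other 303 kept their direction and, for tested values, their side of the threshold. They include the dorDG values of Mgp (1.17 to 1.61 without 1 replicate) and Crip1 (1.66 to 2.38), given without a test, which would not have been called with the replicate block (1.24 and 1.72), in cells with at least 2% ribosomal UMIs (0.90 and 1.5) or without FT 4, FT 5, Sham 1, Sham 3 or Sham 5. Ptgds turned to -0.18 in dorDG and -0.28 between regions in Sham among cells with at least 2% ribosomal UMIs. Between regions in FT it was -0.27 with a replicate block and -0.0148 without Mossy and mural-like cells, and its interaction was -0.00625 with the block. Mgp in precursor-like cells was 0.058 with the block. Without 1 replicate, Ptgds ranged from 0.34 to 0.72 in dorDG, -0.055 to 0.40 between regions in Sham, -0.20 to 0.27 in FT, -0.28 to 0.21 for the interaction, 0.49 to 0.77 in Oligodend1 and 0.43 to 0.77 in oligodendrocyte-like cells, Crip1 in endothelial-like cells from -0.032 to 1.08 and Mgp in precursor-like cells from -0.39 to 0.50. The cause was not tested.

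Counts of genes called moved more. Over all dorDG cells (1221 reported) there were 1849 with DESeq2, 207 with no filter, 531 without Mossy cells, and 0 with the replicate block or in cells with at least 2% ribosomal UMIs. Without 1 replicate there were 0 (FT 4, FT 5, Sham 3 or Sham 5), 1 (Sham 1), 477 (FT 1), 983 (FT 2), 1832 (Sham 4) and 1969 (Sham 2). In venDG (0) there were 18 with DESeq2 and 3 with no filter, and 0 without any 1 replicate. Between regions in Sham (0) the counts were 155 with DESeq2, 61 with no filter, 105 with the block and 0 to 142 without 1 replicate. In FT (11) they were 148, 49 and 257, then 0 in cells with at least 2% ribosomal UMIs, 1 without Mossy and mural-like cells and 0 to 37 without 1 replicate. The interaction (0) gave 8 with DESeq2 and 0 to 335 without 1 replicate. Oligodend1 (221) gave 0 to 559. Oligodend2 (1) gave 2 with DESeq2, 2 with at least 1 cell per replicate, 0 with the block and 0 to 5 without 1 replicate. Oligodendrocyte-like cells (5) gave 17 with DESeq2, 156 with the block and 0 to 526, and precursor-like cells (0) 10 with at least 1 cell per replicate, 4 with the block and 0 to 2. The comparison of reactions (3684) gave 3611 to 3710.

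The FT minus Sham difference of Mgp in dorDG was 0.751 per 10000 as a mean over cells and 0.0208 without Mossy cells, and that of Crip1 0.114 without them. Cells with fibroblast markers numbered 49, 4 and 1 in dorDG and 83, 14 and 4 in venDG at thresholds of 3, 5 and 8. For these cells no source used here says what a replicate number shares between FT and Sham, and 2 of 4 same-numbered pairs in dorDG and 4 of 5 in venDG had r over 0.1, so they were not taken as pairs. S100a6 and Nupr1 are limited by depth, at 86 and 13 UMIs in dorDG.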
